A study of Mus musculus with 18 samples.

Results

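The copying of the genome in S phase was followed through 41 mouse genes that encode its machinery, in AT-3 and E0771 mammary carcinoma cells made to express MRTFA. The genes were chosen by name, as a fixed list of replication factors matched to 1 Ensembl entry each, and make up 41 of the 32286 entries in the deposited count table. By role they are 4 genes of origin recognition and licensing, the 6 subunits of the MCM helicase, 4 genes of helicase activation, 8 of primase and the replicative polymerases, 6 of the sliding clamp and its loader, 2 of single-strand DNA binding, 2 of Okazaki fragment joining, 4 of nucleotide supply and 5 of chromatin and histone handling. All 41 passed the low-count filter, and no member had fewer than 377 counts in any library.

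Replication origins are marked by the origin recognition complex, on which Cdc6 and Cdt1 load the MCM helicase in G1. At the start of S phase Cdc45 and the GINS complex turn the loaded helicase into an active one, primase and the polymerases copy the strands, and the clamp Pcna keeps the polymerases on DNA. Many of these genes are transcribed together as cells pass from G1 to S, under E2F factors held back by RB family proteins, so that their transcripts are widely used as a sign of proliferation.

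Each line was infected with a doxycycline-inducible retroviral vector, pRetroX, carrying wild-type MRTFA, Y238A MRTFA or no insert. MRTFA is a coactivator of the transcription factor SRF that is held in the cytoplasm by monomeric actin, and the labels call the Y238A form deficient in SRF binding. The 6 groups were AT-3 with wild-type MRTFA, AT-3 with Y238A MRTFA, AT-3 with empty vector, E0771 with wild-type MRTFA, E0771 with Y238A MRTFA and E0771 with empty vector, with 3 libraries each and 18 in all. All groups, empty vector included, had doxycycline at 2 µg/ml for 48 h. The labels name neither clones nor separate cultures, so p-values measure the spread between these libraries, which may be technical, and a construct cannot be told apart from the culture that carried it.

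Most replication transcripts fell against empty vector with both constructs in AT-3 and with wild-type MRTFA in E0771. With Y238A in E0771 fewer did, 15 of the 41. The fall was deepest with wild-type MRTFA in AT-3. There 33 members fell and 5 rose, against 32.2% of all 17841 genes tested that fell and 36.4% that rose, and the median log2 fold change was -0.74 over the members and 0.07 over all genes. The 5 that rose were 3 without AT-3 wild-type replicate 2 or replicate 3, and 3 with scaling by library totals in place of TMM. Over all genes, 6497 rose and 5743 fell, against 5668 and 6910 with library totals, 5669 and 6442 without AT-3 wild-type replicate 2, and 5675 and 6486 without replicate 3. With the stricter filter on low counts 4533 rose and 5579 fell. Which direction was commoner thus rested on the scaling, on the filter and on either library. With Y238A in AT-3, 30 members fell and 3 rose (22.2% and 21.4% of all genes), with a median of -0.36 against 0.01 over all genes. In E0771, wild-type MRTFA lowered 28 members and raised 0 (13.3% and 11.2% of all genes), with a median of -0.25 against -0.05. Over all genes 2000 rose and 2364 fell there, but 2154 and 1385 with the stricter filter and 1952 and 1417 with each line fitted alone. More also rose than fell without the 4 libraries with the most transcripts of another group (1662 and 1100). The same held without wild-type replicate 1 or 3 or empty vector replicate 2. Fitted on the 6 libraries of that comparison alone, 30 members fell and 1 rose, beside 2188 and 2602 of all 14446 genes tested there. With the replicate number as a block in that fit, 32 members fell and 1 rose, beside 3107 and 3155 of all genes. With Y238A in E0771, 15 members fell and 0 rose (6.64% and 5.41% of all genes), with a median of -0.16 against -0.01 (-0.10 against -0.01 without E0771 Y238A replicate 2). All 41 fold changes lay below 0 there, and the share of all genes below 0 is not given here. For the upward side in E0771, 1 member had an unadjusted p under 0.05 in edgeR with wild type, Gins2, which DESeq2 and both of those fits called, and 0 members did so with Y238A, where DESeq2 also called 0. A call here is a Benjamini-Hochberg adjusted p under 0.05 over all genes tested in edgeR's quasi-likelihood test. Fold changes are on the log2 scale. Their SE is the absolute fold change divided by the square root of that test's F statistic. Levels are CPM, a gene's counts scaled to the TMM-adjusted size of its library, with the SD over 3 libraries.

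**Figure D1:**
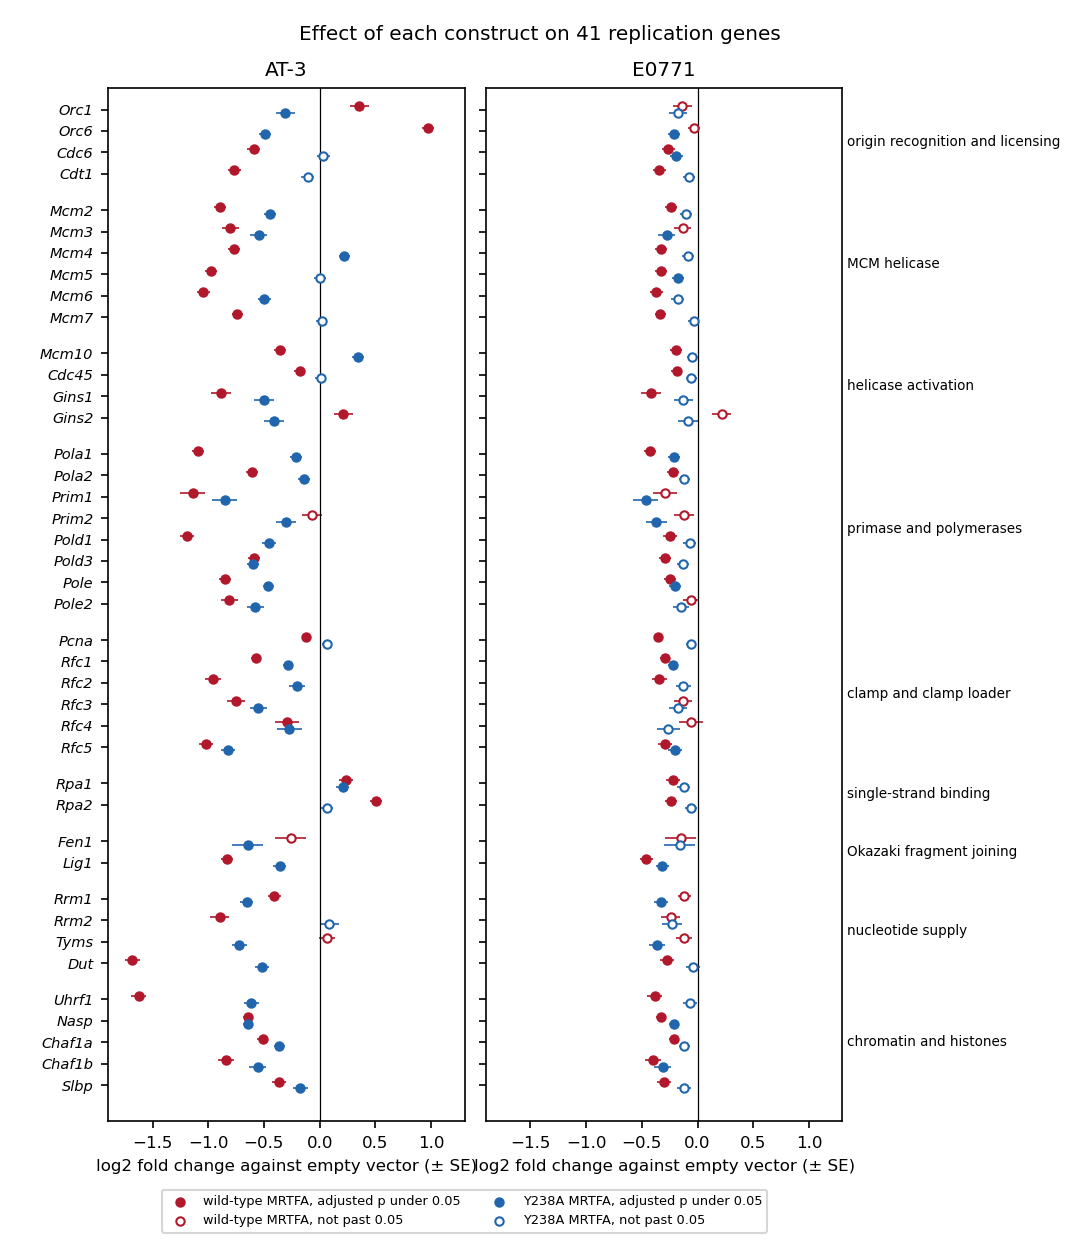
Log2 fold change against empty vector, with its SE, of each of the 41 members in AT-3 (left) and E0771 (right), ordered by role, for wild-type MRTFA (red) and Y238A MRTFA (blue); filled points passed an adjusted p of 0.05. Most points lie left of 0, the red ones in AT-3 reach -1.68, and Orc6, Rpa2, Orc1, Rpa1 and Gins2 are the filled red points right of 0.

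The count for Y238A in E0771 rested on 1 control library, since 6 members were lower without E0771 empty vector replicate 2, where Cdc6, Chaf1b, Mcm3, Mcm5, Orc6, Pola1, Pole, Prim2 and Rfc5 lost the call. Calls over all genes dropped there too, to 548 lower and 703 higher of 18501 tested, from 1184 and 965 of 17841. With library totals the calls over all genes in that comparison were 1176 higher and 817 lower, against 965 and 1184. Both constructs in a line were set against the same 3 empty vector libraries, so their lists of lowered members share that source. In bulk RNA, fewer cells in S phase and less replication RNA in each such cell cannot be told apart. Summed over the 41 members, AT-3 libraries held 3530 ± 178 CPM with wild-type MRTFA and 4458 ± 132 CPM with Y238A, against 5348 ± 132 CPM with empty vector. E0771 libraries held 5472 ± 138 CPM with wild-type MRTFA and 5887 ± 292 CPM with Y238A, against 6590 ± 186 CPM with empty vector. The ranges of the sums did not overlap between a construct and empty vector in either line. Member by member, the 3 libraries with wild-type MRTFA all lay below the 3 with empty vector for 34 members in AT-3 and 34 in E0771, and all lay above for 4 and 1. Over all genes the share below was 35.0% in AT-3 and 25.0% in E0771, and the share above was 39.5% and 16.5%. Both lines had 26 members lowered by wild-type MRTFA, and 7 fell in each of the 4 comparisons with empty vector: the polymerase genes Pola1 and Pole, the clamp loader genes Rfc1 and Rfc5, DNA ligase 1 (Lig1), and the histone chaperone genes Nasp and Chaf1b. The share of all genes that fell in both lines, or in all 4 comparisons, is not given here, so neither count can be set against it. Chaf1b, Pola1, Pole and Rfc5 are also among those that lost the Y238A call in E0771 without that control library.

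**Figure D2:**
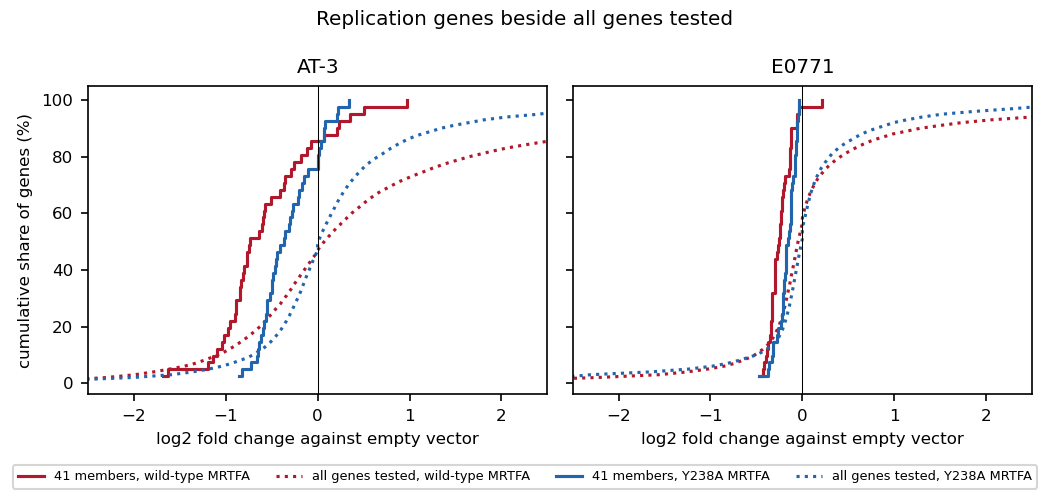
Cumulative share of genes (%) against log2 fold change for the 41 members (solid steps) and all 17841 genes tested (dotted), with wild-type MRTFA (red) and Y238A MRTFA (blue), in AT-3 and E0771. The members' curves lie left of the curves of all genes over most of their length, with medians of -0.74 and -0.36 in AT-3 and -0.25 and -0.16 in E0771.

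The start regions of 4 members with unlike changes are shown for their motifs, and were taken from RefSeq promoter windows of GRCm38.p6, 250 bases before to 50 after the annotated start, the files' own build. Mcm6 was the helicase subunit that fell most with wild-type MRTFA in AT-3, Dut the member that fell most, Orc6 the one that rose most, and Tyms the one member with a CArG box, the kind of motif SRF is known to bind. Capitals mark E2F cores in Mcm6 and the CArG box in Tyms, and the windows of Dut and Orc6 hold neither. The Dut window lies inside the counted gene, whose GENCODE start is base 125247190, so its letters say nothing of the bases before that start.
Mcm6: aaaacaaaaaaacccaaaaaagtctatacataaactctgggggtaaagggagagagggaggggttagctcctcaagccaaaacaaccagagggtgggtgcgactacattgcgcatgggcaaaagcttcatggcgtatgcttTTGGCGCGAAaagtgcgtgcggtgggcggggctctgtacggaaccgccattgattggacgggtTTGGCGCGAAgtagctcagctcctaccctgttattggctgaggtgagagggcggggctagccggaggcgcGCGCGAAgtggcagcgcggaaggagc
Dut: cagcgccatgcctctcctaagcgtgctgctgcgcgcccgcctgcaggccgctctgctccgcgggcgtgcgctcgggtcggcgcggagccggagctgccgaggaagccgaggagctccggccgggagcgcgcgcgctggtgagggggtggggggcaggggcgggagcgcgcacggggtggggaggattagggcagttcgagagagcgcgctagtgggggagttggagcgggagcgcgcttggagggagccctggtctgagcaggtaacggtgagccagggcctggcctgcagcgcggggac
Orc6: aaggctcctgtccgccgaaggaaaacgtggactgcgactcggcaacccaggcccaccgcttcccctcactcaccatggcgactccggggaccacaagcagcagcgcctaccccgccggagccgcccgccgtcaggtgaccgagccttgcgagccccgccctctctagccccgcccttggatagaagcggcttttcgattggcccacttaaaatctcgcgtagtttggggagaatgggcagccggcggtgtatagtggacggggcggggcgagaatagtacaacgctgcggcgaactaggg
Tyms: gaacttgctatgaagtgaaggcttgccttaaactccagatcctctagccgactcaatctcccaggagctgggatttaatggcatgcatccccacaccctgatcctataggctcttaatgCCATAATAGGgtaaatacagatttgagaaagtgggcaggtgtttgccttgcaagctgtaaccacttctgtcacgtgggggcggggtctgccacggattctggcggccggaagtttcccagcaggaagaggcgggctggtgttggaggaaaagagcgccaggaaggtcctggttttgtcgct
The windows lie at chr1:128359656-128359955, - strand (Mcm6), chr2:125247265-125247564, + strand (Dut), chr8:85299382-85299681, + strand (Orc6) and chr5:30073576-30073875, - strand (Tyms). In Mcm6 the 5 cores begin 109, 106, 46 and 43 bases before the start and 24 bases after it, and the first 4 fall into 2 overlapping pairs. The Tyms CArG box begins 131 bases before the start.

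An E2F core, searched on both strands as TTCCCGC and its variants TTCGCGC and also TTGCCGC and lastly TTGGCGC, was in 26 of the 40 windows of the 35 members that matched the table by symbol (65.0%), against 9.57% of all 32851 windows. A CCAAT box on either strand was in 60.0% of member windows and 37.4% of all, and in 3 member windows it shared bases with an E2F core. The letters TTTGAA, the core of the cell cycle homology region, were in 4 of the 40 member windows and 17.9% of all, and a CArG box was in 1 of the 40 and 1.63% of all. Of the 23 members with an E2F core in at least 1 window, 20 fell and 2 rose with wild-type MRTFA in AT-3 (median -0.76). Of the 12 matched members without one, 9 fell and 2 rose (median -0.36), so that lowered genes were found on both sides of this split. Of the 40 windows, 29 hold the GENCODE start of the counted gene, 7 lie after it and 4 before it. A match is a stretch of letters, not a bound site.

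The MRTFA construct, counted as an entry of its own, was present where the labels place it. It reached 7082, 4835 and 4386 CPM in AT-3 with wild type and 2326, 2029 and 1958 CPM with Y238A, against at most 0.0248 CPM with empty vector. In E0771 it reached 866, 707 and 709 CPM with wild type and 354, 325 and 279.9 CPM with Y238A, against at most 0.116 CPM with empty vector, so wild type and Y238A also differ in amount of transcript. Libraries held 81265466 to 115260128 counts, and 61.9% to 64.6% of nonzero counts were even. Replicate 1 of wild type in AT-3 and replicate 2 of Y238A in E0771 differed most from their group mates. Transcripts typical of another group were looked for in E0771, with 240 genes of AT-3, and in AT-3 with Y238A. The latter used 32 genes present with wild type and almost absent with empty vector. Of the libraries examined, 4 had the most (0.269% to 1.35% of the level in the compared group). They were replicate 1 of Y238A in AT-3 and, in E0771, replicate 2 of empty vector and of wild type and replicate 1 of Y238A. Whether these transcripts came from another sample was not tested. Counts of ribosomal protein genes took 2.74% to 3.17% of AT-3 wild-type libraries and 3.88% to 3.92% of AT-3 Y238A libraries, against 5.32% to 5.35% with empty vector, and mitochondrial counts took 0.952% to 1.20% and 0.907% to 1.05%, against 0.641% to 0.777%. Their part in the results was not tested. Scaling by library totals lowered the median of all genes with wild-type MRTFA in AT-3 to -0.07, against 0.07 with TMM, and that of the members to -0.89. For wild type against Y238A in AT-3 it lowered the medians to -0.11 over all genes and -0.46 over the members.

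Of 6 epithelial markers, Krt18 and Cldn7 were under 1 CPM in all libraries, and the summed level was 43.7 to 46.5 CPM in AT-3 with wild type and 66.1 to 78.5 CPM with Y238A, against 5.60 to 5.95 CPM with empty vector. AT-3 cells with empty vector, labelled as mammary carcinoma, held little epithelial marker RNA, with 0.0573 ± 0.0306 CPM of Krt8 and 0.760 ± 0.108 CPM of Epcam. In E0771 the epithelial sum was 569 to 680.5 CPM with wild-type MRTFA and 376 to 399.9 CPM with Y238A, against 304 to 328 CPM with empty vector. The 6 fibroblast markers summed to 88.9 to 104 CPM in AT-3 with wild type and 382 to 427 CPM with Y238A, against 505 to 547 CPM with empty vector, with Dcn and Lum under 1 CPM throughout. Its members differed with wild type in AT-3, with Pdgfrb and Pdgfra at -2.55 and -2.47. Col1a1 and Col1a2 were at 0.28 and 0.36 (unadjusted p = 0.0361 and 0.107 in edgeR). In E0771 the fibroblast markers summed to 132 to 145 CPM with wild type and 266 to 298 CPM with Y238A, against 185 to 206 CPM with empty vector. Among leukocyte markers, Cd68 was at 20.9 ± 0.348 CPM in AT-3 with wild type and 71.97 ± 2.89 CPM with Y238A, against 3.43 ± 0.466 CPM with empty vector. E0771 cells had Cd68 at 3.03 ± 0.224 CPM with wild type and 14.2 ± 2.92 CPM with Y238A, against 3.90 ± 0.926 CPM with empty vector. Csf1r, the receptor of a macrophage growth factor, rose by 4.61 ± 0.53 with wild type in AT-3 (adjusted p = 1.80e-07), with 2.97, 2.55 and 3.16 CPM with wild type and 0.179, 0.0800 and 0.147 CPM with Y238A, against 0.0463, 0.0421 and 0.272 CPM with empty vector. Its means in E0771 were 0.347 ± 0.0532 CPM with wild type and 0.260 ± 0.155 CPM with Y238A, against 0.240 ± 0.0582 CPM with empty vector. By contrast, Ptprc, Adgre1 and Cd3e, which define leukocyte classes, were under 1 CPM in every library. The part of these markers in the results was not tested. Endothelial and adipocyte markers summed to at most 3.88 CPM in any library.

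The listed genes of origin recognition and licensing split in AT-3. There the subunits Orc6 and Orc1 rose with wild-type MRTFA and both loaders fell. Other subunits of the origin recognition complex belong to the list of other fork and origin genes, and their own values are not given here. Orc6 (ENSMUSG00000031697, chromosome 8, 85299632 to 85308278, + strand), the smallest subunit of the origin recognition complex, had 194, 196 and 188 CPM with wild-type MRTFA and 72.4, 70.6 and 66.8 CPM with Y238A, against 97.7, 99.6 and 97.1 CPM with empty vector. The 3 groups did not overlap, and empty vector lay between the constructs. Orc6 rose by 0.98 ± 0.05 with wild type (adjusted p = 1.69e-12) and fell by 0.49 ± 0.05 with Y238A (adjusted p = 2.11e-07). In E0771 it had 64.9, 68.9 and 65.7 CPM with wild-type MRTFA and 60.8, 55.5 and 60.4 CPM with Y238A, against 63.9, 74.04 and 66.2 CPM with empty vector. The wild-type libraries there lay within the range of the controls (-0.03 ± 0.05, adjusted p = 0.718), while Y238A fell by 0.21 ± 0.05 (adjusted p = 0.0135).

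Orc1, the largest subunit of that complex, had 16.6, 15.7 and 18.6 CPM in AT-3 with wild type and 10.5, 11.04 and 10.5 CPM with Y238A, against 13.3, 12.9 and 13.6 CPM with empty vector. It rose by 0.36 ± 0.08 with wild type and fell by 0.31 ± 0.09 with Y238A, again with empty vector in between. The wild-type value of Orc1 was 0.20 with library totals, and without AT-3 wild-type replicate 3 it was 0.16 (adjusted p = 0.0971). E0771 libraries had 19.01, 21.4 and 19.1 CPM with wild-type MRTFA and 20.02, 17.4 and 20.5 CPM with Y238A, against 20.4, 23.7 and 21.3 CPM with empty vector, and neither change passed the test. The loaders Cdc6 and Cdt1 fell in AT-3 with wild type (-0.59 ± 0.06 and -0.76 ± 0.06) and in E0771 (-0.26 ± 0.06 and -0.34 ± 0.06). With Y238A in AT-3 they were at 0.03 (adjusted p = 0.721) and -0.11 (adjusted p = 0.131).

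All 6 subunits of the MCM helicase, the motor that unwinds DNA ahead of the fork, fell in AT-3 with wild type, within a narrow band of -1.05 to -0.74. Mcm6 (ENSMUSG00000026355, chromosome 1, 128331590 to 128359664, - strand) had 139, 166 and 164 CPM with wild type and 232, 229 and 224 CPM with Y238A, against 331, 327 and 309 CPM with empty vector, in 3 ranges that did not overlap. It fell by 1.05 ± 0.06 with wild type (adjusted p = 2.94e-12) and was at -0.50 ± 0.06 with Y238A. Mcm7 fell least with wild type, with 163, 178 and 175 CPM, and had 299.9, 285 and 287 CPM with Y238A, against 292, 284 and 285 CPM with empty vector. Its Y238A libraries reached as high as the controls (0.02 ± 0.05, adjusted p = 0.836), where the wild-type ones were lower by 0.74 ± 0.05.

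With Y238A in AT-3 the 6 subunits did not move together. Mcm2, Mcm3 and Mcm6 fell (-0.45 ± 0.05, -0.55 ± 0.07 and -0.50 ± 0.06), Mcm5 and Mcm7 did not pass the test, and Mcm4 (ENSMUSG00000022673, chromosome 16, 15623897 to 15637400, - strand) rose. Mcm4 had 161, 171 and 178 CPM with wild-type MRTFA and 347, 326 and 336 CPM with Y238A, against 292, 290.4 and 283 CPM with empty vector. All Y238A libraries lay above all controls, by 0.22 ± 0.05 (adjusted p = 0.00178), and all wild-type libraries far below. Per kb of transcript, which lets genes be compared, empty vector cells held 111 ± 3.95 CPM of Mcm6 and 80.4 ± 1.33 CPM of Mcm4. The order was turned in Y238A cells, with 78.5 ± 1.32 CPM per kb of Mcm6 and 93.8 ± 2.92 of Mcm4. In E0771 wild-type MRTFA lowered 5 of the 6, all but Mcm3 (-0.13 ± 0.07, adjusted p = 0.205, or -0.08 and 0.00508 with the replicate block in the 6 libraries alone), and Y238A lowered Mcm3 (-0.28 ± 0.07) and Mcm5 (-0.18 ± 0.05).

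**Figure D3:**
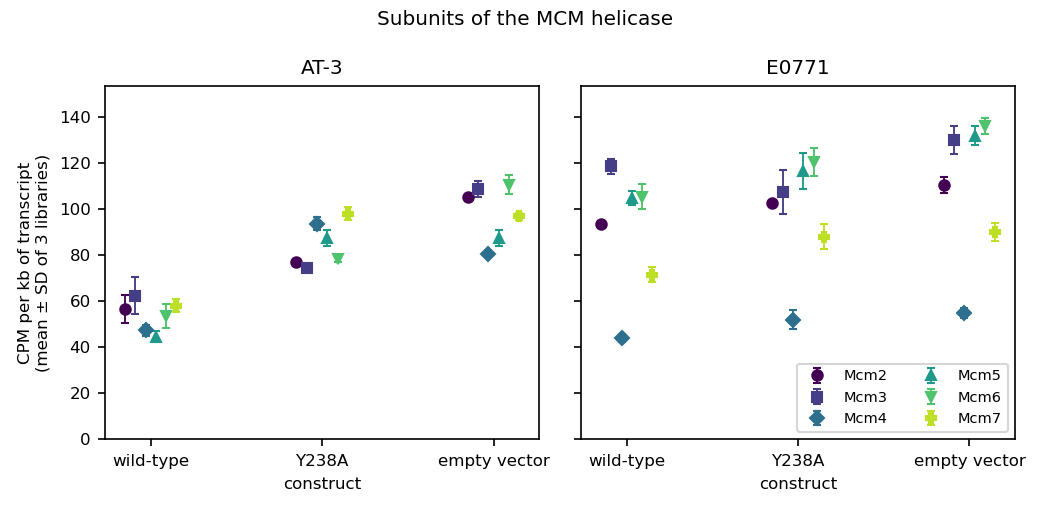
Level of the 6 MCM helicase subunits in CPM per kb of transcript, mean and SD of 3 libraries, for wild-type MRTFA, Y238A MRTFA and empty vector in AT-3 and E0771. In AT-3 the 6 means sit lowest with wild type, and with Y238A Mcm4 and Mcm7 lie above Mcm2, Mcm3 and Mcm6, the reverse of their order with empty vector.

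Among the 4 genes of helicase activation, Gins1, Mcm10 and Cdc45 fell in AT-3 with wild type and Gins2 rose. Gins1 (ENSMUSG00000027454, chromosome 2, 150905400 to 150931280, + strand), a GINS subunit, had 8.20, 9.57 and 10.5 CPM with wild type and 13.2, 11.96 and 11.7 CPM with Y238A, against 17.7, 18.1 and 16.3 CPM with empty vector. It fell by 0.89 ± 0.09 with wild type and was at -0.50 ± 0.09 on the same scale with Y238A, and in E0771 wild type lowered it too (-0.42 ± 0.09). Gins2, its partner in the same complex, had 39.2, 45.6 and 40.3 CPM with wild type and 29.8, 27.5 and 23.97 CPM with Y238A, against 39.4, 35.2 and 33.5 CPM with empty vector. Wild-type and control ranges overlapped, and the rise of 0.21 ± 0.09 (adjusted p = 0.0379) was 0.06 with library totals (adjusted p = 0.569), 0.02 when wild-type replicate 2 was left out and 0.11 when replicate 3 was, and the call was also lost without empty vector replicate 2 or 3. The fall with Y238A was -0.41 ± 0.09 (adjusted p = 6.58e-04). In E0771 Gins2 had 33.9, 32.8 and 36.2 CPM with wild-type MRTFA and 28.9, 24.97 and 29.7 CPM with Y238A, against 31.2, 30.02 and 27.5 CPM with empty vector. There the wild-type libraries lay above the controls without passing the test (0.22 ± 0.09, adjusted p = 0.0799), which Gins2 passed at 0.27 in those 6 libraries alone, without the replicate block (adjusted p = 0.00288) and with it (4.94e-05).

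Mcm10, which helps the activated helicase and polymerase alpha, rose with Y238A in AT-3 and fell with wild type. It had 42.7, 46.6 and 45.5 CPM with wild-type MRTFA and 75.2, 71.3 and 72.7 CPM with Y238A, against 62.99, 53.95 and 56.1 CPM with empty vector. The 3 ranges did not overlap, with changes of -0.36 ± 0.05 for wild type (adjusted p = 5.86e-06) and 0.34 ± 0.05 for Y238A (adjusted p = 2.41e-05). Cdc45, the helicase's partner subunit, changed least of the 4, with 49.8, 49.6 and 52.2 CPM in AT-3 with wild type and 61.4, 55.1 and 55.9 CPM with Y238A, against 58.1, 55.7 and 57.6 CPM with empty vector. Wild type lowered it in both lines, -0.18 ± 0.05 in AT-3 and -0.19 ± 0.05 in E0771, where Mcm10 also fell (-0.20 ± 0.05). The E0771 value of Cdc45 was -0.12 with the stricter filter on low counts (adjusted p = 0.0461). The AT-3 value was -0.33 with library totals, -0.29 when wild-type replicate 2 was left out and -0.32 when replicate 3 was.

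Of 8 genes of primase and the replicative polymerases, 7 fell in AT-3 with wild type and 8 with Y238A. Pold1 (ENSMUSG00000038644, chromosome 7, 44532746 to 44548849, - strand), the catalytic subunit of polymerase delta, had 41.3, 48.5 and 51.8 CPM with wild type and 79.01, 76.8 and 80.5 CPM with Y238A, against 109, 106 and 109 CPM with empty vector. It fell by 1.19 ± 0.06 with wild type (adjusted p = 6.74e-13), and was at -0.45 ± 0.06 with Y238A. In E0771 it had 243, 226 and 229 CPM with wild type and 266, 273 and 249.7 CPM with Y238A, against 284, 276 and 268 CPM with empty vector, a change of -0.25 ± 0.06 with wild type. The catalytic subunits of polymerases alpha and epsilon, Pola1 and Pole, fell in AT-3 with wild type (-1.09 ± 0.06 and -0.85 ± 0.05) and with Y238A (-0.21 ± 0.06 and -0.46 ± 0.05), and in E0771 with wild type (-0.43 ± 0.05 and -0.25 ± 0.05) and with Y238A (-0.21 ± 0.05 and -0.20 ± 0.05). The accessory subunits Pola2, Pold3 and Pole2 fell by 0.61, 0.59 and 0.81 with wild type in AT-3.

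Primase, which lays the RNA primers, is a pair of subunits, and these differed. Prim1, the catalytic one, fell by 1.14 ± 0.11 with wild-type MRTFA and was at -0.85 ± 0.11 with Y238A in AT-3, the deepest Y238A change of any member there. Prim2, the large subunit, had 45.03, 48.4 and 46.02 CPM in AT-3 with wild type and 38.7, 42.5 and 37.3 CPM with Y238A, against 50.5, 48.6 and 47.2 CPM with empty vector. Its wild-type libraries overlapped the controls (-0.07 ± 0.09, adjusted p = 0.521, or -0.22 and 0.0320 with library totals), and with Y238A it fell by 0.30 ± 0.09, a call lost without Y238A replicate 3. In E0771 both fell with Y238A (-0.47 ± 0.11 for Prim1 and -0.37 ± 0.09 for Prim2, the second -0.23 without Y238A replicate 2) and did not pass the test with wild type (adjusted p = 0.0609 and 0.368), though Prim1 did at -0.24 in the 6 libraries of that comparison alone, without the replicate block (adjusted p = 0.00263) and with it (9.44e-06).

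The sliding clamp Pcna changed little in AT-3 while its loader fell. Pcna had 222, 226 and 229 CPM in AT-3 with wild type and 263, 256 and 250.1 CPM with Y238A, against 248, 248 and 239 CPM with empty vector. It fell by 0.12 ± 0.04 with wild type (adjusted p = 0.0136), the smallest called fall of any member there, and Y238A was at 0.06 ± 0.04 (adjusted p = 0.224). The wild-type value was -0.27 with library totals, -0.24 when wild-type replicate 2 was left out and -0.25 when replicate 3 was, and the call was lost without empty vector replicate 2 (adjusted p = 0.0603). In E0771 the clamp had 151, 152 and 151 CPM with wild type and 195, 177 and 184 CPM with Y238A, against 185, 200.5 and 195 CPM with empty vector, a change of -0.35 ± 0.04 with wild type (adjusted p = 1.72e-06). Rfc5 (ENSMUSG00000029363, chromosome 5, 117378103 to 117389047, - strand), a subunit of the clamp loader, had 29.2, 34.1 and 34.7 CPM in AT-3 with wild type and 40.1, 36.97 and 34.9 CPM with Y238A, against 66.1, 68.6 and 63.5 CPM with empty vector. Both constructs lay far below the controls (-1.02 ± 0.06 and -0.82 ± 0.06). Rfc1, Rfc2, Rfc3 and Rfc4 also fell with wild type (-0.57, -0.96, -0.75 and -0.29) and with Y238A (-0.28, -0.20, -0.55 and -0.27), the Rfc4 call with wild type being lost without any of 3 libraries (AT-3 wild-type replicate 1 or empty vector replicate 2 or 3), and the Y238A calls of Rfc2 and Rfc4 without Y238A replicate 2 or 3 or empty vector replicate 2 or 3.

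Both listed genes of replication protein A, which coats unwound single strands, rose with wild-type MRTFA in AT-3. Rpa2 (ENSMUSG00000028884, chromosome 4, 132768332 to 132778752, + strand) had 74.5, 76.2 and 79.05 CPM with wild-type MRTFA and 59.6, 55.8 and 54.3 CPM with Y238A, against 54.3, 53.04 and 54.7 CPM with empty vector. The wild-type libraries lay above all others, by 0.50 ± 0.05 over empty vector (adjusted p = 5.52e-08), and Y238A was at 0.07 ± 0.05 (adjusted p = 0.344). Rpa1, the large subunit, had 246, 236 and 224 CPM with wild type and 243, 225 and 224 CPM with Y238A, against 197, 204 and 198 CPM with empty vector. It rose by 0.24 ± 0.06 with wild type (adjusted p = 0.00184) and by 0.21 ± 0.06 with Y238A (adjusted p = 0.00903). Its wild-type rise was 0.08 with library totals (adjusted p = 0.213), 0.11 without wild-type replicate 2 (adjusted p = 0.145) and 0.15 without wild-type replicate 3, and the Y238A call was lost without Y238A replicate 1 (adjusted p = 0.0581). In E0771 Rpa2 had 41.7, 44.5 and 41.7 CPM with wild-type MRTFA and 50.1, 44.97 and 49.8 CPM with Y238A, against 48.2, 52.7 and 49.5 CPM with empty vector. Both genes fell there with wild type, with -0.23 ± 0.05 for Rpa2 and -0.22 ± 0.06 for Rpa1, the second not past the test without E0771 wild-type replicate 1 (adjusted p = 0.0583).

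Okazaki fragments are trimmed by Fen1 and sealed by Lig1. Lig1 (ENSMUSG00000056394, chromosome 7, 13277283 to 13311433, + strand) had 76.8, 79.9 and 81.4 CPM in AT-3 with wild type and 112, 113 and 106 CPM with Y238A, against 146, 141 and 137 CPM with empty vector, with changes of -0.83 ± 0.06 and -0.36 ± 0.06 in 3 ranges that did not overlap. It was also the member that fell most with wild type in E0771 (-0.46 ± 0.06), with 143, 153 and 145 CPM against 197, 211 and 198 CPM for empty vector. Fen1 had only 5.25, 5.58 and 6.19 CPM in AT-3 with wild type and 4.95, 4.12 and 3.96 CPM with Y238A, against 6.56, 7.41 and 6.42 CPM with empty vector. Wild type was at -0.26 ± 0.14 (adjusted p = 0.103, or -0.41 and 0.0145 with library totals) and with Y238A Fen1 fell by 0.65 ± 0.14. Of the exon bases of Fen1, 84.2% are shared with exons of other counted genes, 78.8% with Gm10143 and 5.37% with Tmem258, so its level per kb, the lowest of the 41 in both lines, cannot be taken as that of the gene.

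Nucleotide supply held the deepest fall and one gene that did not fall. Dut (ENSMUSG00000027203, chromosome 2, 125247190 to 125258608, + strand), the dUTPase that keeps uracil out of DNA, had 28.1, 34.5 and 35.1 CPM in AT-3 with wild type and 75.2, 72.3 and 71.7 CPM with Y238A, against 106, 103 and 104 CPM with empty vector. It fell by 1.68 ± 0.06 with wild type (adjusted p = 7.80e-15) and was at -0.52 ± 0.06 with Y238A, and AT-3 wild-type replicate 1 was the lowest library. In E0771 it had 70.4, 74.2 and 77.1 CPM with wild type and 87.00, 89.8 and 84.7 CPM with Y238A, against 90.3, 92.4 and 86.2 CPM with empty vector. Wild type lay below the controls there (-0.28 ± 0.06, adjusted p = 0.00246), and Y238A overlapped them (-0.04 ± 0.06, adjusted p = 0.759).

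Tyms (ENSMUSG00000025747, chromosome 5, 30058202 to 30073617, - strand), the synthase that makes dTMP from the dUMP that Dut yields, whose window was shown with its CArG box, had 72.4, 82.6 and 77.5 CPM in AT-3 with wild type and 45.7, 46.98 and 42.1 CPM with Y238A, against 76.5, 73.1 and 72.5 CPM with empty vector. Wild-type and control libraries overlapped (0.07 ± 0.07, adjusted p = 0.419), and Y238A lay well below both (-0.72 ± 0.07 against empty vector, adjusted p = 5.58e-08). In E0771 it had 39.6, 41.6 and 40.1 CPM with wild type and 33.2, 30.6 and 38.6 CPM with Y238A, against 41.7, 46.03 and 44.2 CPM with empty vector, and again the Y238A fall passed the test (-0.37 ± 0.07) and the wild-type change did not (-0.12 ± 0.07, adjusted p = 0.241). The subunits of ribonucleotide reductase, which makes deoxynucleotides, answered the constructs differently in AT-3. Rrm1, the large subunit, had 308, 331 and 332 CPM with wild type and 287, 269 and 261 CPM with Y238A, against 447, 425 and 416 CPM with empty vector, changes of -0.41 ± 0.06 and -0.66 ± 0.06. Rrm2, the small one, fell by 0.90 ± 0.09 with wild type and was at 0.08 ± 0.09 with Y238A (adjusted p = 0.465). In E0771 with wild type they were at -0.12 ± 0.06 and -0.24 ± 0.09 (adjusted p = 0.170 and 0.0507), and with the replicate block in the 6 libraries of that comparison at -0.06 and -0.18 (adjusted p = 0.0220 and 8.36e-08). The block fit gave smaller changes, has fewer residual degrees of freedom than the fit of 18 libraries, and was chosen after seeing the data.

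**Figure D4:**
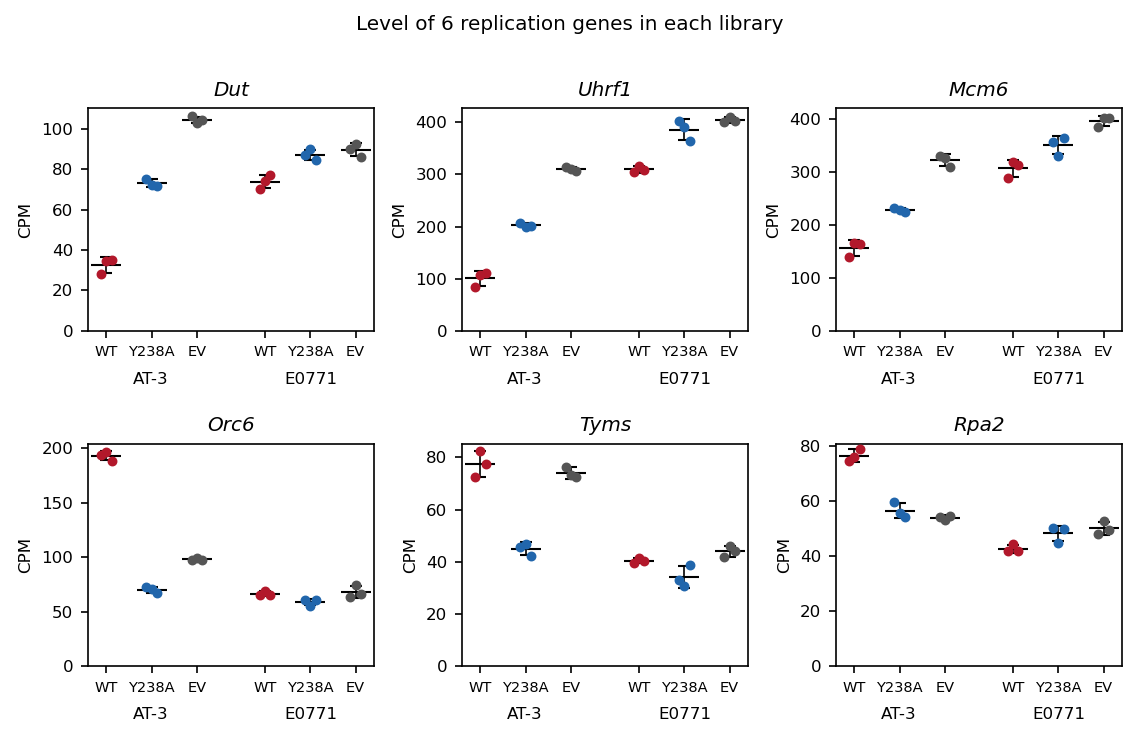
CPM of Dut, Uhrf1, Mcm6, Orc6, Tyms and Rpa2 in every library (points), with the mean and SD of each group (bars), for wild-type MRTFA (WT), Y238A MRTFA and empty vector (EV) in both lines. In AT-3, Dut, Uhrf1 and Mcm6 are lowest with wild type, Orc6 and Rpa2 are highest with wild type, and Tyms is low with Y238A only.

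All 5 genes of chromatin and histones fell with both constructs in AT-3, and all 5 with wild-type MRTFA in E0771. Uhrf1 (ENSMUSG00000001228, chromosome 17, 56303321 to 56323486, + strand), which brings the maintenance DNA methyltransferase to newly copied DNA, had 84.6, 107 and 110.3 CPM in AT-3 with wild type and 207, 199 and 201 CPM with Y238A, against 314, 310.0 and 306 CPM with empty vector. It fell by 1.63 ± 0.07 with wild type (adjusted p = 2.66e-14) and was at -0.61 ± 0.07 with Y238A, with AT-3 wild-type replicate 1 again lowest. E0771 libraries had 304, 317 and 308 CPM with wild type and 402, 391 and 363 CPM with Y238A, against 400.3, 410.2 and 402 CPM with empty vector, and wild type lay below the controls (-0.39 ± 0.07). Slbp, the histone mRNA stem-loop binding protein, changed least, with 76.2, 77.1 and 81.3 CPM in AT-3 with wild type and 89.3, 91.9 and 87.2 CPM with Y238A, against 98.96, 103 and 101 CPM with empty vector. Its falls were -0.37 ± 0.06 with wild type and -0.17 ± 0.06 with Y238A in AT-3, and -0.30 ± 0.06 with wild type in E0771, and the Y238A call was lost without any one of 5 AT-3 libraries. The histone chaperone genes Nasp, Chaf1a and Chaf1b fell by 0.64, 0.51 and 0.84 with wild type in AT-3.

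Set against Y238A directly, wild-type MRTFA in AT-3 gave lower levels of 29 members and higher levels of 8 (31.4% and 34.8% of all genes). With library totals the calls over all genes were 5174 higher and 7075 lower, against 6206 and 5599. The 8 higher members were Orc6 (1.46 ± 0.05), Tyms (0.79 ± 0.07), Orc1 (0.66 ± 0.09), Gins2 (0.62 ± 0.09), Rpa2 (0.44 ± 0.05), Fen1 (0.39 ± 0.14), Rrm1 (0.25 ± 0.06) and Prim2 (0.23 ± 0.09). Of these, Fen1, Rrm1 and Prim2 lost the call with library totals (0.21, 0.08 and 0.06), and 5 members were higher without AT-3 wild-type replicate 2 or replicate 3. The lower ones were led by Dut (-1.17 ± 0.06), Uhrf1 (-1.01 ± 0.07), Mcm4 (-0.99 ± 0.05), Rrm2 (-0.98 ± 0.09) and Mcm5 (-0.98 ± 0.05). In E0771 wild type was lower than Y238A for 16 members and higher for 4 (13.0% and 12.7% of all genes). The 4 were Gins2 (0.30 ± 0.09), Tyms (0.25 ± 0.07), Rrm1 (0.21 ± 0.06) and Orc6 (0.17 ± 0.05), all among the 8 of AT-3. These E0771 counts rested on single libraries. The 4 became 0 without Y238A replicate 2 and 1 without wild-type replicate 2, and the 16 became 8 and 9 without wild-type replicates 1 and 3, and 7 and 8 without Y238A replicates 1 and 3. Over all genes in E0771 the calls were 1972 higher and 3247 lower with library totals, against 2268 and 2326.

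The effect of wild-type MRTFA differed between the lines for most members. Taking the effect in E0771 less that in AT-3, 28 members were higher and 5 lower (23.3% and 24.0% of all genes, or 5266 and 3537 genes with library totals against 4149 and 4285). For the 28 the fold change was less negative in E0771. Dut differed by 1.40 ± 0.09 (adjusted p = 1.03e-10), Uhrf1 by 1.24 ± 0.09 and Pold1 by 0.94 ± 0.08. The 5 lower members (3 without AT-3 wild-type replicate 3) were Orc6 (-1.01 ± 0.07), Rpa2 (-0.74 ± 0.08), Orc1 (-0.49 ± 0.12), Rpa1 (-0.46 ± 0.09) and Pcna (-0.23 ± 0.06). Of these, Rpa1 and Rpa2 fell in E0771 and rose in AT-3, the Rpa1 difference being -0.28 without AT-3 wild-type replicate 2. The Orc1 difference was -0.25 without AT-3 wild-type replicate 3 (adjusted p = 0.0836), and that of Pcna was -0.04 and -0.05 without AT-3 wild-type replicates 3 and 2 and -0.10 with library totals (adjusted p = 0.150). The construct itself averaged 761 CPM in E0771 and 5434 CPM in AT-3, so line and amount of transcript cannot be told apart.

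**Figure D5:**
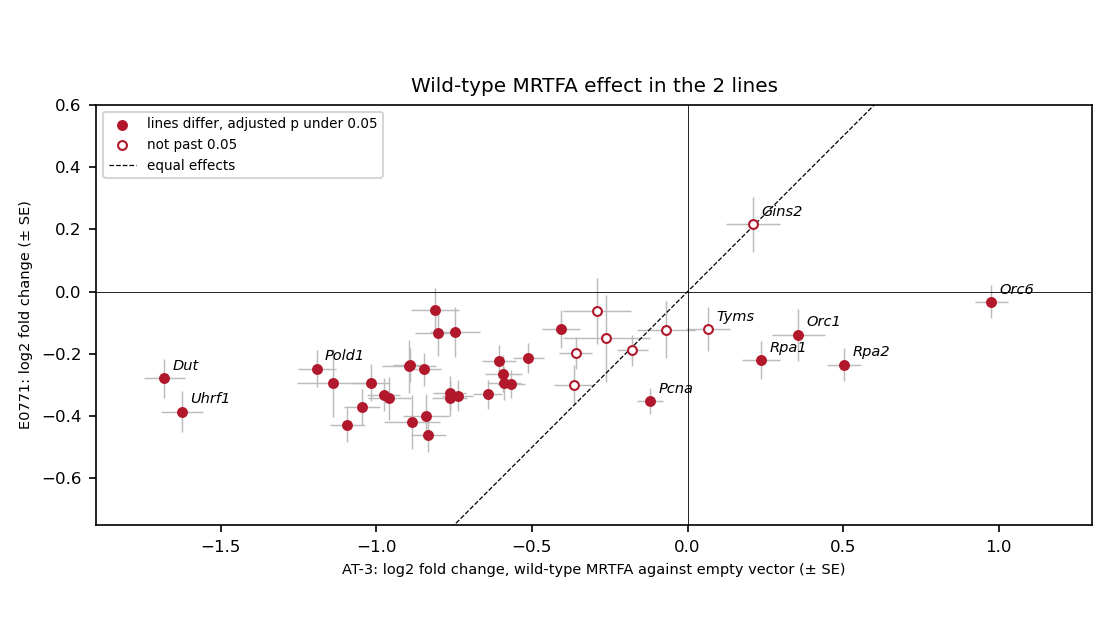
Log2 fold change with wild type over empty vector in AT-3 (x axis) and E0771 (y axis), with SE, for the 41 members; filled points passed the test of the line difference, and the dashed line marks equal effects. Most members lie above the dashed line at the left, while Orc6, Orc1, Rpa1, Rpa2 and Pcna lie below it.

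For Y238A, 16 members were higher and 3 lower in E0771 relative to AT-3 (12.2% and 13.6% of all genes). Rfc5 (0.62 ± 0.09), Nasp (0.43 ± 0.07), Pold3 (0.47 ± 0.08), Uhrf1 (0.55 ± 0.09) and Dut (0.48 ± 0.09) had the smallest p-values, all with a deeper fall in AT-3. The 3 lower were Mcm4 (-0.31 ± 0.08), Mcm10 (-0.39 ± 0.08) and Rpa1 (-0.33 ± 0.09), the members that Y238A raised in AT-3. That count was 5 without AT-3 empty vector replicate 1 or E0771 empty vector replicate 1 and 6 without E0771 Y238A replicate 1. For wild type minus Y238A, 21 members were higher and 5 lower in E0771 relative to AT-3 (22.9% and 22.7% of all genes, or 5225 and 3390 genes with library totals against 4089 and 4058). The smallest p-values belonged to Orc6 (-1.29 ± 0.08), Mcm5 (0.83 ± 0.07), Dut (0.93 ± 0.09), Mcm4 (0.75 ± 0.08) and Pola1 (0.67 ± 0.08). The 5 lower were Orc6, Orc1 (-0.63 ± 0.12), Rpa2 (-0.62 ± 0.08), Tyms (-0.54 ± 0.10) and Gins2 (-0.32 ± 0.12), the last -0.13 without AT-3 wild-type replicate 2, and the count was 8 without E0771 Y238A replicate 2.

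The lines already differed with empty vector. As AT-3 minus E0771, 23 members were lower and 9 higher (35.2% and 36.8% of all genes), with a median of -0.28 over the members and 0.01 over all genes. The largest gap was that of Cdt1, at 67.1 ± 4.49 CPM in AT-3 and 278 ± 10.3 CPM in E0771 (-2.05 ± 0.06). Mcm10 (-1.53 ± 0.05), Pold3 (-1.44 ± 0.05), Pold1 (-1.36 ± 0.06), Pole2 (-1.23 ± 0.07) and Gins1 (-1.04 ± 0.09) were also at least 2-fold lower in AT-3. Slbp (0.79 ± 0.06), Tyms (0.75 ± 0.07), Mcm4 (0.55 ± 0.05) and Orc6 (0.53 ± 0.05) led the higher ones. Per kb of transcript, Pcna was the most abundant member in AT-3 (162 ± 3.46 CPM), followed by Mcm6 (111 ± 3.95), Mcm3 (109 ± 3.33) and Rrm1 (107 ± 3.98), the last 3 within their spread of each other. In E0771 Rrm2 led (149 ± 3.81 CPM), then Mcm6 (136 ± 3.38), Mcm5 (132 ± 4.07) and Mcm3 (130.2 ± 5.92), the last 3 again close. Apart from Fen1, Orc1 was lowest in AT-3 (4.40 ± 0.103 CPM), followed by Gins2 (9.24 ± 0.781), Pold3 (9.42 ± 0.437) and Pole2 (9.42 ± 0.323), the last 3 within their spread of each other. In E0771 Orc1 (7.24 ± 0.564 CPM) and Gins2 (7.57 ± 0.486 CPM) were within their spread of each other, and with 67.3% of its exon bases shared with Gse1 the level of Gins2 per kb cannot be taken as that of the gene.

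Other genes of the pathway were followed as 5 lists. The shares of all genes beside their counts are 32.2% that fell and 36.4% that rose with wild type in AT-3, 22.2% and 21.4% with Y238A there, 13.3% and 11.2% with wild type in E0771, and 6.64% and 5.41% with Y238A there, with all-gene medians of 0.07, 0.01, -0.05 and -0.01. Of 43 other genes of the fork and origin, 24 fell and 7 rose with wild-type MRTFA in AT-3 (median -0.46), and with Y238A 24 fell and 9 rose (median -0.27). In E0771, 20 fell and 2 rose with wild type (median -0.17), and 9 fell and 3 rose with Y238A (median -0.08). With the replicate block in the 6 libraries of the wild-type comparison, 25 fell and 4 rose, beside 3107 and 3155 of all 14446 genes tested there. Timeless, a fork protection factor, fell with wild type (-1.05 ± 0.05) and with Y238A (-0.64 ± 0.05) in AT-3, and with wild type in E0771 (-0.32 ± 0.05). Top2a, the topoisomerase of dividing cells, and Hells, a chromatin remodeller, fell with wild type in AT-3 (-1.22 ± 0.06 and -1.16 ± 0.07) and in E0771 (-0.31 ± 0.06 and -0.37 ± 0.06). Pold4, the smallest polymerase delta subunit, rose with both constructs, by 1.29 ± 0.06 and 1.46 ± 0.06 in AT-3 and by 0.34 ± 0.07 and 0.72 ± 0.07 in E0771 for wild type and Y238A in turn. Of 20 other genes of nucleotide synthesis, 16 fell and 2 rose with wild type in AT-3 (median -0.56), and 14 fell and 3 rose with Y238A (median -0.34). In E0771, 9 fell and 2 rose with wild type (median -0.14), or 12 and 4 with that block, and 5 fell and 0 rose with Y238A (median -0.06), where 1 was higher at an unadjusted p under 0.05 in edgeR and DESeq2 called 0 higher. Dtymk, which phosphorylates dTMP, Cad, of pyrimidine synthesis, and Nme1, a nucleoside diphosphate kinase, fell with wild type in AT-3 (-1.04 ± 0.05, -0.89 ± 0.05 and -1.13 ± 0.06), while Ctps, the CTP synthase, rose (0.85 ± 0.04) and fell with Y238A (-0.31 ± 0.04).

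Of 19 genes of the E2F, RB and DREAM list, 9 fell and 7 rose with wild-type MRTFA in AT-3 (median -0.14), against the 32.2% and 36.4% of all genes, and 9 fell and 2 rose with Y238A (median -0.22). In E0771, 4 fell and 2 rose with wild type (median -0.07). With the replicate block in the 6 libraries of that comparison 6 fell and 4 rose, beside 3107 and 3155 of all 14446 genes tested there. With Y238A in E0771 edgeR called 0 in either direction (median -0.11), with 7 lower and 0 higher at an unadjusted p under 0.05, and DESeq2 called 2 lower and 0 higher. E2f1, an activator of replication genes, was at -0.12 ± 0.06 with wild type in AT-3 (adjusted p = 0.0691) and fell by 0.31 ± 0.06 with Y238A, and E2f4, a repressor of the DREAM complex, fell with both (-0.58 ± 0.05 and -0.71 ± 0.05). E2f5, the other DREAM repressor, had 34.4 ± 3.20 CPM with wild type and 7.15 ± 0.620 CPM with Y238A, against 9.69 ± 0.734 CPM with empty vector in AT-3, a rise of 1.83 ± 0.09 and a change of -0.44 ± 0.09. Tfdp1, a dimer partner of E2F, fell with wild type (-0.96 ± 0.05) while Tfdp2, another, rose (0.68 ± 0.04). Mybl2, a factor of the later cell cycle, rose with wild type in AT-3 (0.80 ± 0.05) and E0771 (0.28 ± 0.05) and fell with Y238A in AT-3 (-0.70 ± 0.05).

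In the list of 16 genes of G1/S kinases and control, 9 fell and 3 rose with wild-type MRTFA in AT-3 (median -0.51), and 9 fell and 4 rose with Y238A (median -0.44). In E0771, 4 fell and 0 rose with wild type (median -0.14), with 0 higher at an unadjusted p under 0.05 in edgeR and 0 called higher by DESeq2. The replicate block in the 6 libraries of that comparison gave 9 lower and 2 higher, beside 3107 and 3155 of all 14446 genes tested there. With Y238A there, 5 fell and 2 rose (median -0.14). Cdkn1a, the p21 inhibitor of cyclin-dependent kinases, had 73.97 ± 7.78 CPM with wild type and 37.2 ± 2.49 CPM with Y238A, against 8.70 ± 1.26 CPM with empty vector in AT-3, rises of 3.09 ± 0.14 and 2.10 ± 0.13. In E0771 it had 44.2 ± 2.34 CPM with wild type and 72.4 ± 14.9 CPM with Y238A, against 51.8 ± 2.68 CPM with empty vector, and the wild-type value did not pass the test (-0.23 ± 0.12, adjusted p = 0.192, or 0.0316 in the 6 libraries of that comparison alone and 4.08e-04 with the replicate block there). Ccnd1, cyclin D1, fell by 2.11 ± 0.11 with wild type in AT-3, where its partner Cdk4 fell (-0.99 ± 0.07) and Cdk6 rose (1.17 ± 0.06), and E0771 wild type was at -0.09 ± 0.10 for Ccnd1 (adjusted p = 0.565). Among 9 genes of the replication checkpoint, 2 fell and 5 rose with wild type in AT-3 (median 0.21), and 4 fell and 3 rose with Y238A (median -0.04). In E0771, 3 fell and 0 rose with wild type (median -0.10), or 3 and 2 with that block, with 0 higher both at an unadjusted p under 0.05 in edgeR and by DESeq2. With Y238A there edgeR and DESeq2 called 0 in either direction (median -0.03), and 0 had an unadjusted p under 0.05 in edgeR. Atr, the kinase that senses stalled forks, rose by 1.20 ± 0.09 with wild type and fell by 0.25 ± 0.09 with Y238A in AT-3, and Rad9a and Atrip, of the same pathway, rose with wild type (0.62 ± 0.07 and 0.37 ± 0.07), while Wee1, a mitotic inhibitor kinase, fell (-0.87 ± 0.09).

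Exons of 12 of the 41 members share bases with exons of another counted gene in the GENCODE annotation of the same build. The labels give no strand setting for the counting, so reads from the shared bases cannot be told apart. The share of a member's exon bases was 67.3% for Gins2 with Gse1, 52.5% for Chaf1a with Ubxn6, 15.1% for Rfc2 with Lat2 and 12.7% for Rfc4 with Eif4a2, and at most 10.8% for the others besides Fen1. With wild-type MRTFA in AT-3, Vps35, which shares 6.93% of Orc6's exon bases, was at -0.16 ± 0.06, and Gse1 was at -1.27 ± 0.07. Gm12743, which shares 10.8% of Orc1's, was at 0.42 ± 0.35 (adjusted p = 0.299) beside the 0.36 of Orc1. For Chaf1a, which fell, Ubxn6 was at 0.78 ± 0.06.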

How the data were processed

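RNA from 18 samples was purified with RNeasy columns and made into NuGen Universal Plus mRNA libraries, per the labels' protocols. The authors deposited 1 table of raw gene counts for all libraries. STAR, featureCounts and GRCm38 are named in the submitters' processing notes, with versions, annotation release and strand setting not given in the sources used here. The origin and species of the MRTFA entry are likewise not given. Most nonzero counts were even, as when both mates of a pair are counted, in which case counting precision is overstated.

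The counts were tested with edgeR 4.0.16 in R 4.3.3 (quasi-likelihood F test, robust, TMM scaling, filterByExpr with a minimum count of 10 and total of 15), in 1 fit of 6 groups over 17841 genes with 12 residual degrees of freedom, and Benjamini-Hochberg adjustment over all genes at 0.05. DESeq2 1.42.0, other scalings and filters, each line alone, and leaving out libraries were alternatives, and fits of the 6 E0771 wild-type and empty vector libraries, without and with the replicate block, were chosen after seeing the data. Those fits of 6 libraries leave fewer than 12 residual degrees of freedom, so their p-values rest on less replication. The script was tested on simulated counts with few changed genes, as many raised as lowered. That test does not bear on the choice of scaling. Deviations of same-numbered libraries from their group means correlated over 0.1 in all 3 pairs for E0771 wild type and empty vector alone (0.51 to 0.64), so the replicate number was taken to pair those samples, from the data and not the labels. In the other 5 pairs of groups within a line at least 1 of 3 correlations was at or under 0.1 (-0.30 to 0.47 over all). Between the lines, 10 of 27 same-numbered pairs of libraries were over 0.1, against 1 of 54 with different numbers. The medians were 0.074 and -0.025. The main fit left the replicate number out, and a block over all 18 libraries was an alternative. Libraries with different numbers also correlated in E0771, most for wild-type replicate 2 with Y238A replicate 1 (0.45). Y238A replicate 1 with empty vector replicate 2 followed (0.40). Those libraries held transcripts typical of AT-3, at 0.508% (wild type), 0.269% (Y238A) and 1.35% (empty vector) of the level in the AT-3 group with the same construct. Neither the AT-3 group that these transcripts came from nor their part in the pairing was tested. Every member is reported. Per-library values were given for the members of each role with the largest and smallest change with wild type in AT-3 and for those called against the main direction of any comparison, and up to 4 genes of each other pathway list were named by smallest p with wild type in AT-3, plus E2f1 and E2f4. Members and lists were chosen with earlier results of these data known. Exon overlaps came from GENCODE and promoters from RefSeq. One marker of the leukocyte list, and sums over that list, are not reported here.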

Additional observations from a re-analysis of the deposited data

Results flagged for a closer look

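Each result here is a difference between the lines that passed edgeR's test of the difference itself, adjusted over all genes, taking the effect in E0771 less that in AT-3. For wild-type MRTFA against empty vector, 28 members were higher and 5 lower (23.3% and 24.0% of all genes). The 5 were 3 without AT-3 wild-type replicate 3. The smallest p-values belonged to Dut (1.40, from -0.28 in E0771 and -1.68 in AT-3), Orc6 (-1.01, from -0.03 and 0.98), Uhrf1 (1.24, from -0.39 and -1.63), Pold1 (0.94, from -0.25 and -1.19) and Rpa2 (-0.74, from -0.23 and 0.50).

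For Y238A against empty vector, 16 members were higher and 3 lower (12.2% and 13.6% of all genes). Rfc5 differed by 0.62, Nasp by 0.43, Pold3 by 0.47, Uhrf1 by 0.55 and Dut by 0.48, and all 5 had fold changes nearer 0 in E0771. For wild type minus Y238A, 21 members were higher and 5 lower (22.9% and 22.7% of all genes). Orc6 differed by -1.29, with 0.17 in E0771 and 1.46 in AT-3. Mcm5 differed by 0.83, Dut by 0.93, Mcm4 by 0.75 and Pola1 by 0.67, with wild type further below Y238A in AT-3 for these 4.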

How the results depend on the processing

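No member changed direction while called under any alternative run, and the counts of members differed by over 1.5 times as follows. With library totals in place of TMM, 3 members were higher with wild-type MRTFA than with empty vector in AT-3 and 5 higher than with Y238A. DESeq2, the stricter filter, each line alone and the 6 E0771 wild-type and empty vector libraries alone, without and with the replicate block, gave 1 member higher with wild type in E0771. Without the 4 libraries with the most transcripts of another group, Y238A in E0771 lowered 5 members, and wild type against Y238A there had 1 higher and 6 lower. Of all 18321 genes tested in that run, Y238A lowered 333, and wild type against Y238A had 1804 higher and 1465 lower. For the line difference of the Y238A effect DESeq2 gave 5 lower, and for wild type minus Y238A both DESeq2 and its size factors gave 8 lower. The replicate number was taken to pair only E0771 wild type and empty vector. There the block within those 6 libraries gave 32 lower and 1 higher against 30 and 1 without it, adding Mcm3 and Rrm1, and changed no other call of a member. Of the 14446 genes tested in those fits, 3107 fell and 3155 rose with the block, against 2188 and 2602 without it. With the block over all 18 libraries, Y238A lowered 29 members in AT-3 and wild type was below Y238A for 15 in E0771, and every other count of members was as without it.

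Leaving out 1 library at a time gave, for wild type against empty vector, 3 to 5 higher and 31 to 34 lower in AT-3 and 27 to 29 lower in E0771. For Y238A it gave 2 to 3 higher and 25 to 30 lower in AT-3 and 6 to 16 lower in E0771. For wild type against Y238A it gave 5 to 8 higher and 25 to 30 lower in AT-3 and 0 to 5 higher and 7 to 21 lower in E0771. For the line differences it gave 28 to 32 higher and 3 to 5 lower (wild type), 13 to 21 higher and 3 to 6 lower (Y238A), and 20 to 27 higher and 4 to 8 lower (wild type minus Y238A). The cause of these moves was not tested. With 3 libraries a group, members that missed the threshold cannot be read as unchanged.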
